A study of Mus musculus with 4 samples.

Results

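Fos, Fosb, Jun, Junb, Atf3, Egr1, Egr2, Ier2, Dusp1 and Zfp36 are 10 immediate early response genes, and their transcripts were measured in mouse prostate on 2-colour Agilent arrays. They were chosen by name: every probe that was not a control and carried 1 of these 10 gene names was taken, which gave 13 probes and 40 spots of 41174 probes and 43379 spots in all. Each of 4 arrays held the RNA of 1 mouse labelled with Cy5 and pooled RNA of 3 wild type mice labelled with Cy3, always in this orientation. Each value below is a log2 ratio of mouse over pool after background correction and loess normalisation, so 0 is the level of the pool and each unit of 1 is a factor of 2.

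The mice formed 2 groups of 2, each 60 days of age, untreated and of the mixed C57BL/6:129/SVJae:FVB strain. The mutant mice were Rb1R654W/F:Trp53F/F:PB-cre4, which joins an Rb1 allele coding for the R654W protein to a conditional Rb1 allele. The null mice were Rb1F/F:Trp53F/F:PB-Cre4, with both Rb1 alleles conditional. Both groups therefore carried conditional Trp53 alleles and the Cre transgene, and neither was a control for the loss of Trp53. PB-Cre4 is driven by a probasin promoter and acts in prostate epithelium, so the stroma, vessels and leukocytes of the same prostate keep their alleles. The labels give the pooled wild type mice as prostate and give no age or strain for them. The comparison of mutant with null mice asks what the R654W protein does against no Rb1 protein in cells that also lose Trp53. The labels do not mark the R654W allele as conditional. Cells without Cre therefore differ too, being Rb1R654W/F in mutant mice and Rb1F/F in null mice, and are part of the same comparison. In RNA from a whole organ, fewer cells of a type and less RNA per cell cannot be told apart.

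Immediate early genes are transcribed within minutes of a growth factor or a stress signal, without new protein synthesis, because the factors that switch them on (SRF with its ELK partners, and CREB) already sit in the nucleus and are activated by ERK, JNK, p38 and cAMP pathways. Their products include the FOS, JUN and ATF proteins that pair as AP-1, the zinc finger factors EGR1 and EGR2, and brakes on the same response: DUSP1 removes phosphate from p38, JNK and ERK, and ZFP36 speeds the decay of short-lived mRNAs. In prostate, AP-1 and EGR1 are best known as growth-responsive factors.

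The promoter sequences show which of these genes share the letters of a cAMP response element, the motif that CREB and ATF proteins bind. RefSeq promoters of the GRCm38.p6 assembly were matched for 8 of the 10 genes, and the 250 bases before each start were searched on both strands. Egr1 and Ier2 had no matched promoter and were not searched. The 6 letters TGACGT were found for 4 of the 8 genes, Atf3, Dusp1, Egr2 and Fos, against 6.47% of all 32851 windows of that length. Egr2 has 5 listed starts, and a motif in any of their windows was counted. These 4 windows, 1 of them for Egr2, are printed because their genes went different ways in the null mouse described below. Capitals mark the core letters TGACG or CGTCA, the full element where it occurs, and a CArG box, the motif of SRF. The windows lie at chr1:191183334-191183583 (minus strand) for Atf3, chr17:26508473-26508722 (minus strand) for Dusp1, chr10:67537619-67537868 (plus strand) for Egr2 and chr12:85473640-85473889 (plus strand) for Fos.
Atf3: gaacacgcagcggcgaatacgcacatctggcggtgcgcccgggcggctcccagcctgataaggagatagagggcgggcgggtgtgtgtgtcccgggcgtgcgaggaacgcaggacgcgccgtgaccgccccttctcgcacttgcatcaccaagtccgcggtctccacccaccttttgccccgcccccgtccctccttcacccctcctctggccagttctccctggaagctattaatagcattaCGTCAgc
Dusp1: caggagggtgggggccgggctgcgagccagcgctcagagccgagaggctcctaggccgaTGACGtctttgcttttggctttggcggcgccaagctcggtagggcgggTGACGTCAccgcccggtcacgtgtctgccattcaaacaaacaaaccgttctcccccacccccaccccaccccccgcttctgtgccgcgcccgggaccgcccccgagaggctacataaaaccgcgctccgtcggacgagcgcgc
Egr2: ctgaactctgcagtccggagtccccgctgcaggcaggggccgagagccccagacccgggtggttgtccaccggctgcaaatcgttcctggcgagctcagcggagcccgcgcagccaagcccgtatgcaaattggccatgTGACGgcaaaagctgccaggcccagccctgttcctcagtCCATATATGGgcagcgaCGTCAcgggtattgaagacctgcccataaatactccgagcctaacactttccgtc
Fos: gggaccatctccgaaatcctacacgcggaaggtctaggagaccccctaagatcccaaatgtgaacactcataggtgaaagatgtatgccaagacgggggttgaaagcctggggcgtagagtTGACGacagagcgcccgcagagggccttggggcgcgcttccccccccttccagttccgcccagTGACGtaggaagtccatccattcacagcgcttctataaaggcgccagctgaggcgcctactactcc

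The element lay 66 bases before the start of Fos and 143 bases before that of Dusp1. The full 8-letter element TGACGTCA, found in 1.55% of windows, was held by Dusp1 alone among the 8 genes. A CArG box, found in 1.47% of windows, was held by Egr2 and Zfp36. TATAAA was in the window of Fos and in 12.4% of all windows, and GGGCGG was held by 7 of the 8 genes and by 32.7% of windows. The AP-1 motif TGANTCA was in none of the 8 genes' windows, against 6.75% of all, and the heat shock motif GAANNTTC was held by Jun, against 6.69%. A match is a run of letters and does not show that a factor was bound.

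Of the 13 probes, 12 passed the filter on dim spots, and these stood for all 10 genes. The exception was the second Ier2 probe, which was not well above background in either channel on any array. On these arrays 24916 probes passed and 24912 were tested. The pool channel varied by an SD of 0.01 to 0.13 log2 units over the 4 arrays for the 12 probes. One library stood apart. Null mouse 1 had a median background-subtracted signal of 20.5 against 55.1 to 90.1 in the other mice, and 22181 probes well above background against 25047 to 26165. Its ratios correlated with those of the other mice at r of 0.16 to 0.23 across probes, against 0.49 to 0.58 among the other 3, as a description with no test. Results that rest on this mouse are given with and without it. All 10 markers of prostate luminal epithelium, Krt18 and Pbsn among them, passed. So did all 7 skeletal muscle and all 8 neuroendocrine markers, so passing the filter does not check the labelled tissue. The brighter Rb1 probe read -0.65 and -0.24 in the mutant mice and 0.09 and -0.87 in the null mice, and the Trp53 probes lay between -0.40 and 0.53. No position of an Rb1 or Trp53 probe was set against the deleted exons, so these values do not check the labels.

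**Figure D1:**
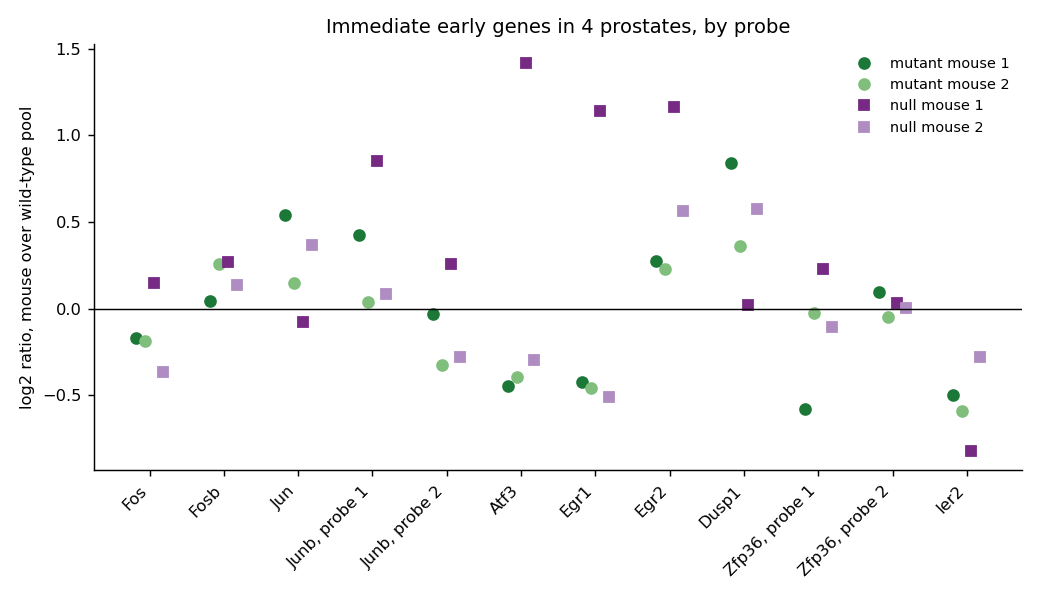
Log2 ratio of mouse over wild type pool (vertical axis) for each of the 12 probes that passed, with 1 point per mouse. Null mouse 1 stands at 1.42 for Atf3, 1.17 for Egr2 and 1.14 for Egr1, away from the other 3 mice, and is the lowest mouse for Dusp1, Ier2 and Jun.

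None of the 10 genes was called different between mutant and null mice by the limma fit with Benjamini-Hochberg adjustment. Their adjusted p-values lay between 0.985 and 1.0, and 0 of the 24912 probes were called (0% called). At an unadjusted p under 0.05 the fit gave 546 probes, 2.19% of those tested, and none of the 12. The median difference over the 12 probes was -0.12, beside 0.02 over all tested probes. Null mouse 1 was the highest mouse for Atf3, Egr1 and Egr2 and the lowest for Jun, Dusp1 and Ier2. The other 3 mice spanned 0.09 for Egr1 and 0.15 for Atf3, but 0.34 for Egr2, 0.39 for Jun, 0.48 for Dusp1 and 0.56 for the brighter Zfp36 probe.

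Among the AP-1 genes, Atf3 was the most spread. ATF3 is a stress-induced factor that mostly represses when paired with itself. Its probe (chromosome 1:190724174-190724233, minus strand, in build mm7, as the files give it) read -0.44 and -0.40 in the mutant mice and 1.42 and -0.30 in the null mice. The first null mouse was high and the other 3 lay within 0.15 of each other, so the genotypes did not overlap only by the gap between -0.40 and -0.30. Mutant minus null was -0.98 (SE 0.57, 95% interval -2.43 to 0.47) over 2 mice per genotype, with a limma p of 0.143 and an adjusted p of 0.985. Without null mouse 1 the difference was -0.12. The ratio of null mouse 1 was reached or passed by 1.06% of tested probes on its array, whereas 90.5% to 94.8% of probes reached the ratios of the other mice.

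Fos and Fosb encode the FOS proteins that pair with a JUN protein. The Fos probe (chromosome 12:83478431-83478490, plus strand) read -0.17 and -0.19 in the mutant mice and 0.15 and -0.36 in the null mice. Null mouse 1 was the highest and null mouse 2 the lowest, with both mutant mice between them, so the genotypes overlapped. The difference was -0.07 (SE 0.24, adjusted p = 0.991 by limma), and 0.19 without null mouse 1. The probe had 10 spots per array, 9 of them usable in mutant mouse 2, with an SD over spots of 0.06 to 0.10, which is technical error only. Fosb (chromosome 7:16985502-16985561, minus strand) read 0.05 and 0.26 in the mutant mice and 0.27 and 0.14 in the null mice, and the groups overlapped. Its pool channel was not well above background on any array while every mouse channel was. The estimate for Fosb was 1.11-fold the pool in mutant mice and 1.15-fold in null mice. In log2 units the 95% intervals (limma) were -0.19 to 0.50 and -0.14 to 0.55, so both included 0. The measured pool signal was not below the lowest signal well above background, so these folds are estimates and not lower limits.

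For Jun the lowest mouse was null mouse 1, and for Junb it was the highest, though with median centring in place of loess it was the highest for neither Junb probe. JUN is the main activating AP-1 partner, and JUNB often opposes it in proliferation. The Jun probe (chromosome 4:94441779-94441838, minus strand) read 0.54 and 0.15 in the mutant mice and -0.08 and 0.37 in the null mice. The lowest of the 4 was null mouse 1, and the groups overlapped. The difference was 0.20 (SE 0.25, adjusted p = 0.985 by limma), and it was -0.03 without null mouse 1. Over 10 spots per array the SD was 0.05 to 0.09. The brighter Junb probe (chromosome 8:83563059-83563118, minus strand) read 0.43 and 0.04 in the mutant mice and 0.85 and 0.08 in the null mice. The second Junb probe, which overlaps it on the genome, read -0.03 and -0.32 in the mutant mice and 0.26 and -0.28 in the null mice. Both probes put null mouse 1 highest and mutant mouse 2 lowest, and the brighter one read higher by 0.36 to 0.60 log2 units in each mouse. Mutant minus null was -0.24 and -0.17 for the 2 probes, and 0.15 and 0.10 without null mouse 1.

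**Figure D2:**
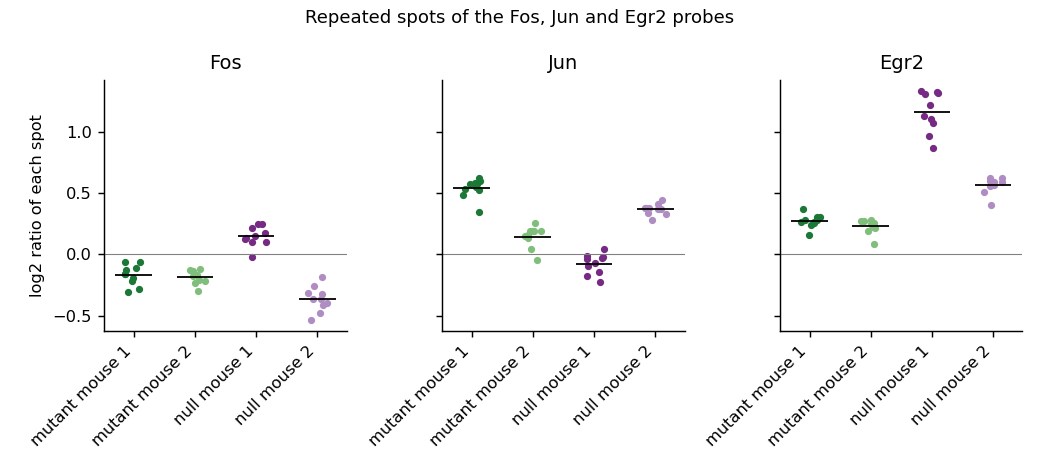
Log2 ratio of mouse over pool of each single spot for the 3 probes printed 10 times per array (Fos, Jun and Egr2), grouped by mouse, with a line at the mean. For Egr2 the spots of null mouse 1 run from 0.87 to 1.33 and those of the mutant mice from 0.08 to 0.37, while the spots of the 4 mice overlap more for Fos and Jun.

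Egr1 and Egr2 were also high in null mouse 1. EGR1 and EGR2 are zinc finger factors that bind GC-rich promoters. The Egr2 probe (chromosome 10:67145376-67145435, plus strand) read 0.27 and 0.23 in the mutant mice and 1.17 and 0.57 in the null mice. Both null mice were above both mutant mice, by a wide gap for null mouse 1 and a smaller one for null mouse 2. Over 10 spots the mean ± SD was 0.27 ± 0.05 and 0.23 ± 0.06 in the mutant mice and 1.17 ± 0.16 and 0.57 ± 0.07 in the null mice. Mutant minus null was -0.61 (SE 0.26, 95% interval -1.27 to 0.04) over 2 mice per genotype, with a limma p of 0.061 and an adjusted p of 0.985. Without null mouse 1 the difference was -0.32. Of all tested probes, 5.81% had a difference at least this large.

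Egr1 (on chromosome 18, plus strand) read -0.42 and -0.46 in the mutant mice and 1.14 and -0.51 in the null mice. The first null mouse was high and null mouse 2 was the lowest, so the genotypes overlapped. Mutant minus null was -0.75 (SE 0.55, 95% interval -2.16 to 0.65; limma adjusted p = 0.985), and 0.07 without null mouse 1. In the other 3 mice Egr1 was among the low ratios, which 90.3% to 97.5% of tested probes reached.

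Over the 12 probes, 2 had mutant mice wholly below null mice, Atf3 and Egr2, against 13.6% of tested probes. None had mutant mice wholly above, against 16.7%, so 2 of 12 did not overlap where 30.3% of tested probes did not. Null mouse 1 was the highest of the 4 mice for 8 of the 12 probes, which holds for 31.3% of tested probes. It was the lowest for 3, which holds for 37.5%. It exceeded the mean of the other 3 by over 1 log2 unit for 2 of the 12, Atf3 (1.79) and Egr1 (1.60), which holds for 2.59%, and it was below that mean by as much for none, which holds for 3.28%. These counts were read after the data had been seen and carry no test. With median centring in place of loess, null mouse 1 was the highest for 5 probes (Atf3, Egr1, Egr2, Fos and Fosb), against 13.3% of tested probes, and the lowest for 5, against 66.7%. On Agilent's processed signals it was the highest for 9, against 35.6% of tested probes, and the lowest for 3, against 37.3%.

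Dusp1 and Ier2 were lowest in null mouse 1, as Jun was. Dusp1, the brake on the MAP kinases (chromosome 17:24690398-24690455, minus strand) read 0.84 and 0.36 in the mutant mice and 0.02 and 0.58 in the null mice. All 4 mice were above the pool, null mouse 1 by the least, and the genotypes overlapped. Mutant minus null was 0.30 (SE 0.29, adjusted p = 0.985 by limma), and 0.02 without null mouse 1. Ier2, an early response gene of unclear biochemical role, read -0.50 and -0.59 in the mutant mice and -0.82 and -0.28 in the null mice from the probe at chromosome 8:83243584-83243618 (minus strand). All 4 mice were below the pool, null mouse 1 the furthest, and the groups overlapped. Its mutant minus null difference was 0.0049 (SE 0.25), and -0.27 without null mouse 1.

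Zfp36 had 2 probes. The one at chromosome 7:25310682-25310724 (minus strand) read -0.58 and -0.02 in the mutant mice and 0.23 and -0.10 in the null mice, with null mouse 1 the highest. The other read 0.09 and -0.05 in the mutant mice and 0.03 and 0.00 in the null mice, so the 4 mice lay within 0.15 of each other. Neither probe was called between the genotypes, with mutant minus null differences of -0.36 and 0.00. Without null mouse 1 the first was -0.20, and without mutant mouse 1 it was -0.08.

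**Figure D3:**
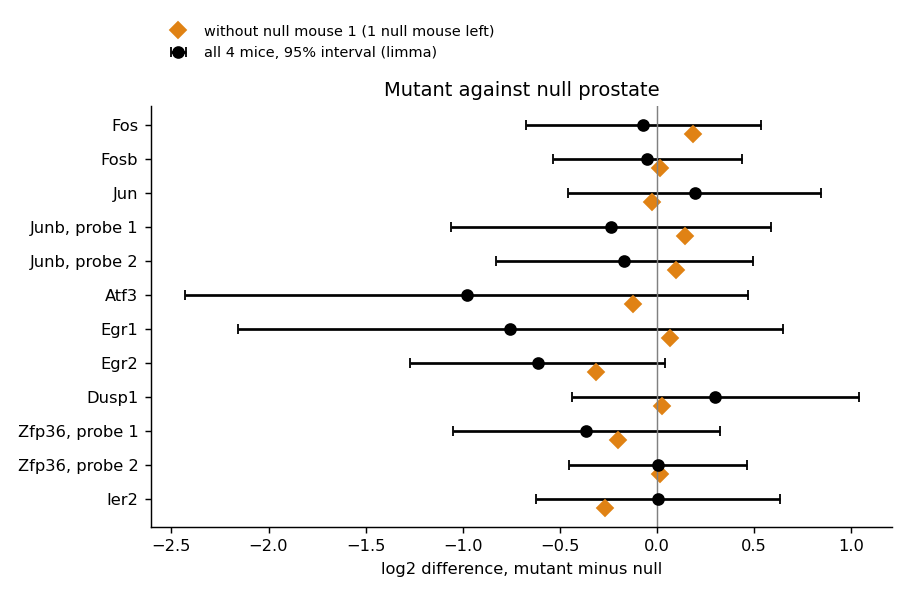
Difference of mutant minus null in log2 units (horizontal axis) for the 12 probes, with black points for the limma estimate, bars for its 95% interval (n = 2 mice per genotype) and diamonds for the difference without null mouse 1. Every interval includes 0. Atf3 has the widest interval, from -2.43 to 0.47, and Egr2 has one that ends at 0.04.

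Signal in the mouse channel put the ratios in context. Atf3 had background-subtracted signals of 3142 and 2776 in the mutant mice and 3227 and 2063 in the null mice, so null mouse 1 was as bright as the rest. Jun had 1815 and 1282 in the mutant mice and 296 and 1074 in the null mice. Ier2 had 6180 and 4710 in the mutant mice and 1174 and 4548 in the null mice. Null mouse 1, the array with the lowest median signal, was thus dim for Jun and Ier2 and not for Atf3, and the ratio after loess is relative to probes of similar brightness on the same array. For the dim probes Egr2, Fos and Fosb the offset of 50 draws ratios towards 0. On Agilent's processed signals, which carry no such offset, Egr2 read 0.39 and 0.37 in the mutant mice and 2.00 and 0.86 in the null mice. Fos read -0.49 and -0.46 in the mutant mice and 0.34 and -0.81 in the null mice on that scale.

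Against the pool, all 4 mice stood above it for 4 of the 12 probes (Dusp1, Egr2, Fosb and the brighter Junb probe), which holds for 16.7% of tested probes, and below it for 1, Ier2, which holds for 14.8%. Fosb passed the filter only through the mouse channel, so its place above the pool, here and in the counts below, can follow from the filter. On Agilent's processed signals 2 of the 12 were above it in all 4 mice (Egr2 and Fosb) and 1 below, with Dusp1 at -0.03 in null mouse 1. With median centring 6 were above and 0 below, and 3 member probes, Egr2 and both Junb probes, were then called. That setting called 4263 of the 24912 tested probes (4196 higher, 67 lower) and moved the median of all probes to 0.37. The share of tested probes above or below the pool in all 4 mice was not counted on either of these scales. After loess no member was called in any of these fits. For all 4 mice against the pool, limma called 3 probes (0.012%) and no member. At an unadjusted p under 0.05, with 17.6% of tested probes past it (9.31% higher, 8.26% lower), 2 of the 12 were higher and 1 lower. Egr2 stood at 0.56 (SE 0.13, limma adjusted p = 0.203), Dusp1 at 0.45 (SE 0.14, adjusted p = 0.244) and Ier2 at -0.55 (SE 0.12, adjusted p = 0.201).

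For the mutant mice alone, limma called no probe, and 10.6% of tested probes had an unadjusted p under 0.05 (6.27% higher, 4.36% lower). Dusp1 at 0.60 (SE 0.20) and Ier2 at -0.55 (SE 0.17) were the 2 of the 12 with such a p, and both had a limma adjusted p of 0.453. Both mutant mice were above the pool for 5 of the 12 probes, Fosb among them (37.2% of tested probes), and below it for 6 (29.3%). For the null mice alone, limma also called no probe, and 10.2% had an unadjusted p under 0.05 (4.82% higher, 5.38% lower). Here Egr2 at 0.87 (SE 0.18) and Ier2 at -0.55 (SE 0.17) were the 2 of the 12, with a limma adjusted p of 0.474 for both. Without null mouse 1 they were 0.57 and -0.28, the values of null mouse 2 alone, and the limma adjusted p-values were 0.582 and 0.832. Both null mice were above the pool for 5 of the 12, again with Fosb (29.2% of tested probes), and below it for 1 (27.3%). The genotype comparisons share the pool, and the pool was 1 sample, so these tests hold no spread among wild type animals and keep any unequal response of the dyes. With median centring the all-mice mean of Ier2 turned from -0.55 to 0.16.

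Distances between mice described the same pattern. Over the 12 probes the root mean square difference between mutant mouse 2 and null mouse 2 was 0.18, and between mutant mouse 1 and null mouse 2 it was 0.25. The 2 mutant mice differed by 0.29. Null mouse 1 differed from the other 3 mice by 0.82 to 0.86. Over all probes the pairs among the other 3 mice differed by 0.29 to 0.39 and those with null mouse 1 by 0.55 to 0.61. By this measure the members lay further apart than all probes in each pair with null mouse 1 and closer in the other 3 pairs. By the median absolute difference the pair of mutant mouse 1 and null mouse 2 was at 0.21 for the members and 0.20 for all probes, so that pair was not closer. These are descriptions with no test.

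The relatives of these genes were described by list, beside 31.3% of tested probes for which null mouse 1 was the highest. Of the AP-1 and ATF relatives, 18 passed and null mouse 1 was the highest for 12, with a median of 0.69 against 0.10 to 0.16 in the other 3 mice. Jund, the AP-1 partner of quiescent cells, read -1.37 and -0.50 in the mutant mice and 0.05 and -0.01 in the null mice. Of the EGR, NR4A and KLF relatives, null mouse 1 was the highest for 8 of 13, with a median of 0.83. Klf6 read -0.78 and -0.29 in the mutant mice and 1.72 and 0.04 in the null mice, while Nr4a1 read 0.46 and 0.36 in the mutant mice and 0.42 and -0.04 in the null mice. Of other immediate early and early response genes, null mouse 1 was the highest for 18 of 28, at a median of 0.31, and mutant mice lay wholly below null mice for 12 of 28 and wholly above for 2, beside 13.6% and 16.7% of tested probes. Gadd45g read 0.28 and 0.04 in the mutant mice and -0.50 and -0.05 in the null mice, and Sgk1 read 0.00 and 0.03 in the mutant mice and 0.28 and -0.85 in the null mice.

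These counts depend on the scaling. With median centring null mouse 1 was the highest for 3 of 18 AP-1 and ATF relatives, 3 of 13 EGR, NR4A and KLF relatives and 6 of 28 other early genes, against 13.3% of tested probes. On Agilent's processed signals it was the highest for 12, 7 and 20 of them, against 35.6%.

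Of the upstream and feedback genes, null mouse 1 was the highest for 9 of 31 in the ERK, JNK and p38 pathway, with a median of -0.20, and for 4 of 10 DUSP phosphatases. With median centring the DUSP count was 0 of 10, beside 13.3% of tested probes on that scale. Dusp6, the ERK phosphatase, read 0.40 and 0.07 in the mutant mice and 1.12 and 0.52 in the null mice, whereas Dusp16 read 0.18 and 0.11 in the mutant mice and -0.26 and -0.50 in the null mice. Of the 11 ZFP36 relatives and decay genes, null mouse 1 was the highest for 2, and of the 12 SRF, TCF and CREB factors for 4. Srf read 0.30 and 0.18 in the mutant mice and -0.14 and 0.20 in the null mice. Of the EGF family ligands 5 passed, and null mouse 1 was the highest for 4. Hbegf, a ligand of the EGF receptor, read -0.19 and -0.16 in the mutant mice and 1.02 and 0.13 in the null mice. Egf, another ligand of that receptor, read -0.28 and -0.17 in the mutant mice and -0.42 and -0.89 in the null mice. No gene of these lists was called in any comparison.

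**Figure D4:**
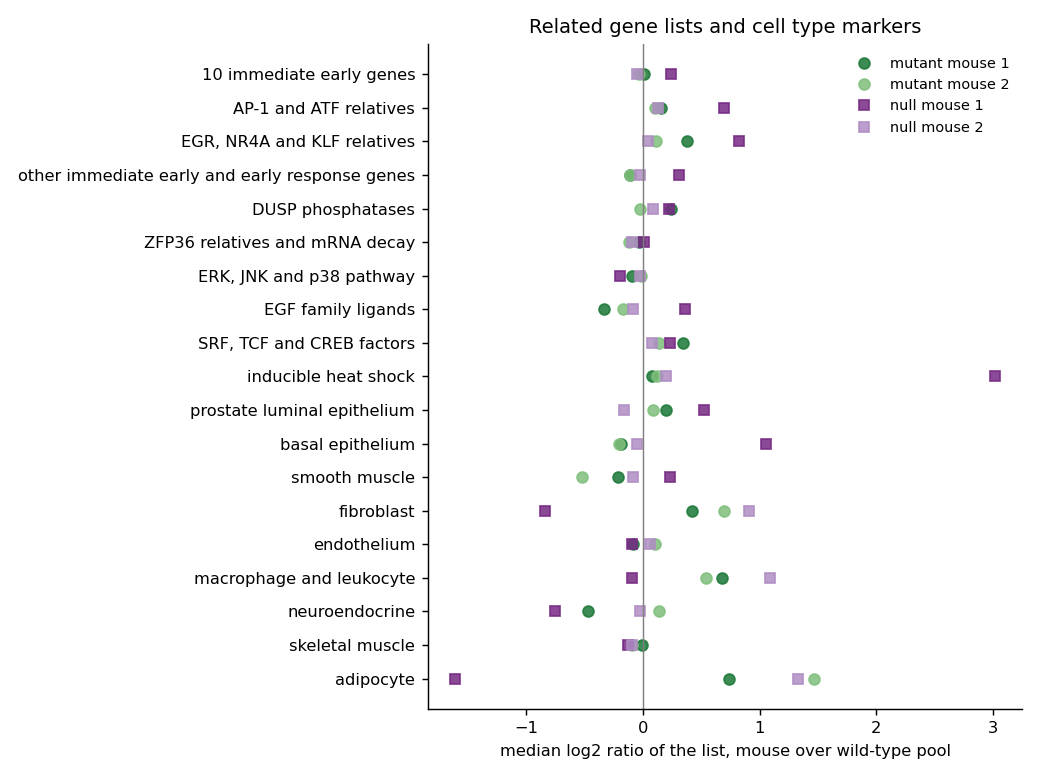
Median log2 ratio of mouse over pool over the genes of each list (horizontal axis), with 1 point per mouse. Null mouse 1 stands at 3.02 for inducible heat shock genes, 0.83 for EGR, NR4A and KLF relatives and 0.69 for AP-1 and ATF relatives, and at -0.84 for fibroblast and -1.61 for adipocyte markers, after loess; with median centring it no longer has the highest median for the AP-1 and EGR lists. Seminal vesicle markers are left out of the plot.

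Other lists moved with null mouse 1. Inducible heat shock genes had a median of 3.02 there against 0.08 to 0.20 in the other mice, with null mouse 1 the highest for 15 of 15, and a summed signal 6.47 times the pool against 0.92 to 1.15. Fibroblast markers were lowest there for 7 of 7, with a summed signal of 0.52 times the pool against 1.11 to 1.84. Macrophage and leukocyte markers were lowest there for 7 of 8, at 0.70 times the pool against 2.16 to 3.59, and adipocyte markers for 4 of 4, at 0.18 against 1.65 to 3.13. Prostate luminal epithelium markers were the highest there for 6 of 10, with a median of 0.52 against -0.16 to 0.20 and a summed signal of 1.61 times the pool against 0.85 to 1.15. With median centring that count was 2 of 10, beside 13.3% of tested probes on that scale. Basal epithelium markers were the highest there for 4 of 6, at 1.85 times the pool against 0.83 to 0.89, and smooth muscle markers for 8 of 8, at 1.14 against 0.70 to 0.91. The smooth muscle count was 0 of 8 with median centring, beside the same 13.3%. Endothelium markers were lowest there for 3 of 8, neuroendocrine markers for 5 of 8, skeletal muscle markers for 4 of 7 and seminal vesicle markers for 2 of 4, beside 37.5% of tested probes. Of the marker lists, 1 of 5 adipocyte and 2 of 6 seminal vesicle markers did not pass the filter, and every other marker did. The part of these lists in the member values was not tested.

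Genes were also ranked by Euclidean distance, the root of the summed squared differences of the 4 log2 ratios. Among 12179 genes, the 5 nearest to Fos were Akap8l, Usp52 (now Pan2), Irf3, Fastkd1 and Pusl1, at distances of 0.08 to 0.13. The 5 nearest to Egr1 were Ddx25, Krt15, Edem1, Uspl1 and Trim55, at 0.28 to 0.33. With 4 values per gene such nearness is a description.

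The authors' deposited table, whose scale is not stated and whose values resemble linear ratios to the pool, gave Atf3 a mean of 1.56 in null and 0.665 in mutant mice, a ratio of 2.35 and lower in mutants. The SEMs it gave for Atf3 were 0.81 in null and 0.047 in mutant mice. In the authors' deposited table Egr1 was 1.34 (SEM 0.72) in null and 0.607 (SEM 0.023) in mutant mice, a ratio of 2.21, also lower in mutants. Egr2 had 10 rows in the authors' deposited table, with null means of 2.22 to 2.91, mutant means of 1.07 to 1.24 and ratios of 1.79 to 2.51, lower in mutants. The SEMs of these rows were 0.64 to 1.11 in null and 0.0068 to 0.13 in mutant mice. The authors' deposited table put Fos lower in mutants in 7 rows (1.15 to 1.40) and Jun higher in 8 rows (1.14 to 1.22). In the authors' deposited table Dusp1 (1.20) and Ier2 (1.36) were higher in mutants and Junb (1.23) was lower, from rows that name no probe. The authors' deposited table holds no value per mouse, so its ratios cannot be given without null mouse 1. It holds no ratio under 1.13. In the fit here the Ier2 probe that passed had a difference of 0.0049 and lay below the pool in all 4 mice. The authors' deposited table gave Ier2 a mean of 0.938 in null and 1.27 in mutant mice. On Agilent's processed signals the Ier2 probe that failed the filter read 1.04 and 0.00 in the mutant mice and 0.00 in both null mice. Which of the probes the authors' row holds is not stated.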

How the data were processed

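The members and the gene lists were chosen with earlier results of these data known. The deposited scanner files give spot intensity (mean, background and processed signals) and a log10 ratio, per the file headers. Feature Extraction was version 9.5.1.1 per the file headers and 8.5 per the submitters' processing notes. The authors' deposited table holds a linear ratio of group means, with no probe named. Total RNA was amplified and labelled as cRNA, per the labels' protocols.

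Mean signals were corrected by normexp with an offset of 50 and loess-normalised in limma 3.58.1 (R 4.3.3), with control spots at weight 0 and spots flagged as outliers left out. Spots of a probe were averaged. The filter kept probes well above background in the mouse channel on the 2 arrays of either genotype, or in the pool channel on all 4 arrays. Log2 ratios were fitted with a term per genotype (lmFit, eBayes) over 24912 probes, and a Benjamini-Hochberg adjusted p under 0.05 was the threshold. All 10 genes are named with every probe. From each list, genes past the threshold, or else the 2 of highest mean intensity, could be named. Promoter windows and probe positions are from different builds (GRCm38.p6 and mm7) and were not joined. Replicate numbers did not pair the mice (correlation of deviations 0.0035), and the labels name separate mice. The 4 arrays shared 1 slide and 1 scan, and mice of a genotype sat side by side on it, so genotype and slide position cannot be told apart.

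On simulated data, with the genotype comparison of 24912 probes, the fit was tested and recovered 0 of 50 probes changed 2-fold, 21 of 50 at 4-fold, 44 of 50 at 8-fold and 48 of 50 at 16-fold, with 6 false calls. An exact permutation of 2 against 2 mice cannot go below p = 0.333. The alternatives tried were Agilent's processed signals, an offset of 16, median centring, Aquantile, other filters, gene rows, array weights, a replicate block and leaving out each mouse.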

Additional observations from a re-analysis of the deposited data

How the results depend on the processing

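With 2 mice per genotype, 1 pool and no dye swap the precision is limited, and the offset draws dim probes such as Fosb, Fos and Egr2 towards 0. Of 336 member values recomputed under the 7 settings that can move an estimate, 288 kept their direction and their side of the threshold. Where a mouse was left out, the other genotype's mean against the pool could not move. In each such setting 36 values moved, and those that could not are among the 288. Of the rest, 45 reversed, and 3 kept their direction and passed the threshold. The second Junb probe, with median centring and all mice against the pool, is counted among the reversed values although it also passed the threshold. The other 6 settings (Aquantile, filters, gene rows, array weights and the block) leave the members' estimates as they are and can move only their p-values. In the comparison of mutant with null mice no member was called under any setting. Apart from fewer samples where a mouse was left out, the cause was not tested for the changes that follow.

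On Agilent's processed signals the mutant minus null difference was -0.00081 for Ier2 and -0.10 for the dimmer Zfp36 probe. That probe then read -0.17 against the pool in mutant mice, -0.069 in null mice and -0.12 in all 4, and the other Zfp36 probe -0.0088 in null mice. All 4 mice against the pool gave 6 called probes on these signals, 19 with an offset of 16 and 5 with a strict filter, against 3 in the fit reported. Mutant mice against the pool gave 2 called probes, against 0, with an offset of 16, a strict filter, gene rows or array weights, and null mice 2 with an offset of 16 or a strict filter. All 4 mice gave 0 with no filter. With the replicate number as a block all 4 mice gave 0 called probes, and that block changed no call of a member.

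Median centring moved the median of all probes to 0.38 for mutant minus null, 0.60 for mutant, 0.14 for null and 0.37 for all 4 mice against the pool. The members' medians became 0.13, 0.51, 0.41 and 0.55. Mutant minus null then read 0.14 for Fos, 0.38 and 0.45 for the Junb probes and 0.12 for the brighter Zfp36 probe. Mutant against pool read 0.54 for Atf3, 0.34 for Egr1, 0.043 for Fos, 0.48 for Ier2, 0.89 for the second Junb probe and 0.36 for the brighter Zfp36 probe, and null against pool 0.44 for that Junb probe. All 4 mice read 0.45 for Egr1, 0.16 for Ier2, 0.66 for the second Junb probe and 0.31 for the brighter Zfp36 probe. That setting called 4263 probes (4196 higher, 67 lower) and 3 member probes in all 4 mice, Egr2 and both Junb probes. The raw log2 ratio rose with brightness except in null mouse 1. From the dimmest to the brightest 8305 probes it went from 0.69 to 1.77 in mutant mouse 1. In mutant mouse 2 it went from 0.71 to 1.63, and in null mouse 2 from 0.43 to 1.18. Null mouse 1 read -0.04 in the dimmest, -0.16 in the middle and -0.05 in the brightest 8305. Median centring shifts all ratios of an array alike and so leaves this trend in. Its part in the changes with median centring was not tested.

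Leaving out each mouse in turn gave ranges of mutant minus null of -1.58 to 0.070 for Egr1, -0.33 to 0.19 for Fos, -0.16 to 0.057 for Fosb, -0.27 to 0.28 for Ier2, -0.025 to 0.42 for Jun, -0.62 to 0.15 and -0.43 to 0.099 for the Junb probes and -0.069 to 0.076 for the dimmer Zfp36 probe. The members' median ranged from -0.38 to 0.018 and called probes from 0 to 9. Against the pool in mutant mice the dimmer Zfp36 probe ranged from -0.050 to 0.094 and called probes from 0 to 2. In null mice Atf3 ranged from -0.30 to 1.42, Egr1 from -0.51 to 1.14, Fos from -0.36 to 0.15, Jun from -0.075 to 0.37, the second Junb probe from -0.28 to 0.26, the brighter Zfp36 probe from -0.10 to 0.23 and the members' median from -0.050 to 0.24. Without null mouse 2, 384 probes and 1 member, Atf3 (limma adjusted p = 0.042), were called there, against 0 in the fit reported, with null mouse 1 the lone null mouse and assumed to vary as the mutant mice do. In all 4 mice called probes ranged from 0 to 326, with 36 without null mouse 1 and 326 without null mouse 2. Atf3 ranged from -0.36 to 0.50 there, Egr1 from -0.48 to 0.35, the second Junb probe from -0.23 to 0.039, and the Zfp36 probes from -0.26 to 0.020 and from -0.016 to 0.056.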
